A study of Mus musculus with 4 samples.

Results

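The Hes and Hey genes encode basic helix-loop-helix (bHLH) transcriptional repressors that carry an Orange domain. The members examined here were the 10 table entries named Hes1, Hes2, Hes3, Hes5, Hes6, Hes7, Hey1, Hey2, Heyl and Helt, out of 55267 entries in all. They were picked by name, as the Hes and Hey family, which includes effectors of the Notch pathway. RNA-seq was performed on cultured MuSCs, the stem cells of skeletal muscle, from female 9-week-old mice of the genotype C57BL/6N(Tg(Pax7-EGFP)Tajb), in which a Pax7-driven green fluorescent reporter marks the MuSCs. All 4 cultures were sorted for the reporter after 1 day in culture, grown for 2 more days, and kept for 6 h in serum-free medium with 200 ng/mL soluble BMP receptor 1A-Fc, which binds BMPs of the medium. Then 2 cultures received 100 ng/mL BMP6 and 2 received the vehicle (4 mM HCl with 0.1% BSA), each for 1 h. The replicate number of each library was labelled as a batch, so that each BMP6 library had a control of the same number, called pair 1 and pair 2 below. Reporter-positive cells were enriched before the 2 further days of culture, and the labels do not say how many animals gave each culture.

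Notch receptors are cut when they bind a ligand on a neighboring cell. The freed intracellular domain joins the DNA-binding protein RBPJ and a Mastermind coactivator and switches on target genes, of which Hes1, Hey1 and Heyl are the best known in MuSCs. The Hes and Hey proteins then repress other genes, the Hes proteins together with Groucho (TLE) corepressors. In MuSCs, Hes and Hey proteins hold back myogenic differentiation through Myod1 and Myog. HES1 also represses its own gene. HES6 differs from the others in that it counteracts HES1 and favors myogenic differentiation. The question addressed here was whether 1 h of BMP6 changed the transcript levels of these genes.

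The 4 libraries were similar in depth, with 108138615 to 111966627 reads of 100 bases as rebuilt from the deposited coverage. Sequencing was paired-end, so both reads of a fragment can be counted here and below, and separate fragments are fewer. Between 13002 and 13203 entries per library reached 1 TPM, a unit of transcript abundance that corrects for transcript length and library size, and mitochondrial transcripts took 3.80% to 4.29%. The labelled cell type was checked with marker genes. Pax7, the MuSC factor behind the reporter, was at 8.29 to 11.7 TPM, whereas Myog, the transcription factor of terminal differentiation, was at 4399.5 to 5471.5 TPM. Summed over 6 markers each, the endothelial list reached 1.25 to 2.16 TPM, of which Tek made up 1.24 to 1.87 TPM, while Pecam1 and Cdh5 were at most at 0.111 and 0.0579 TPM and Kdr and Tie1 were listed at 0, and the immune list 1.38 to 1.91 TPM. The fibroblast markers summed to 124 to 198 TPM, lower in both BMP6 libraries than in their paired controls. Most of this was Col3a1 (69.4 to 109 TPM), Col1a1 (34.3 to 62.9 TPM) and Ly6a (18.7 to 24.1 TPM). Dcn was at 0.955 to 1.92 TPM, and Lum and Pdgfra were at most at 0.270 and 0.164 TPM. The pericyte or smooth muscle markers summed to 2916 to 3260 TPM, nearly all of it Acta2. In this list Pdgfrb was at 4.41 to 4.93 TPM, Cspg4 at 2.05 to 3.95 TPM, Rgs5 at 0.231 to 0.879 TPM and Myh11 at most at 0.0239 TPM, and Cspg4 and Rgs5 were higher after BMP6 in both pairs. Their part in the results was not tested.

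The members that were abundant, Hes1, Hes6, Hey1 and Heyl, each had 1 transcript in the files. The GENCODE M39 annotation lists 10, 8, 5 and 6 for them, so exon results below describe 1 transcript per gene. The sequences of these members bear on how well reads can be assigned to them. The exons below lie wholly in the coding sequence, at the same place in both Hes genes (exon 3) and in both Hey genes (exon 4), and are shown as examples of conserved parts of the family. Capitals mark the longest run that both genes of a pair share within the exon, which was 13 bases in each pair. The sequences were read 5′ to 3′ from GRCm39, the build of the files.
Hes1 (chr16:29884981-29885068, plus strand): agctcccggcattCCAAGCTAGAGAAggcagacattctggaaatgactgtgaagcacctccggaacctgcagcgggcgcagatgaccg
Hes6 (chr1:91340443-91340524, minus strand): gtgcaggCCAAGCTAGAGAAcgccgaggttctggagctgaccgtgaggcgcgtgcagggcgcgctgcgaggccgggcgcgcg
Hey1 (chr3:8731005-8731086, minus strand): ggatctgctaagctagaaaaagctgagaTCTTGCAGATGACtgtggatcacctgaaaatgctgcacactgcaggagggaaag
Heyl (chr4:123136817-123136898, plus strand): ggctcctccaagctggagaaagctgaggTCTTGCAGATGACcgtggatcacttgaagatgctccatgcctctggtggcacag
Over whole transcripts, the longest identical run between any of these 4 members was 17 bases, shared by Hey1 and Heyl, against reads of 100 bases. Aligned to all GENCODE M39 transcripts with a word size of 28 bases, Hes1, Hes6 and Heyl matched no other gene. Hey1 matched Gm64520, a non-coding gene on the other strand (chr3:8731591-8784863), over 177 bases. The libraries were unstranded, so reads of that stretch cannot be assigned to 1 of the strands.

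Hes6 was the most abundant member in every library (chr1:91339205-91340944, minus strand). It was at 1004 TPM in control 1 and 1258 TPM in control 2, and at 1372 TPM in BMP6 1 and 1707 TPM in BMP6 2. Both BMP6 libraries lay above both controls, but BMP6 1 exceeded control 2 by less than either group's SD. Hes6 took 80.3% to 86.4% of the summed TPM of the 10 members, which was 1232 and 1456 TPM in the controls and 1708 and 1991 TPM after BMP6. Hes1, the oscillating effector that represses its own gene (chr16:29884158-29886614, plus strand), followed at 102 and 98.2 TPM in the controls and 154 and 109 TPM after BMP6. BMP6 1 stood apart from the other 3 libraries, which lay close together. Heyl (chr4:123127349-123143668, plus strand) was at 89.1 and 70.6 TPM in the controls and 96.2 and 92.0 TPM after BMP6. Its controls differed from each other by more than BMP6 2 differed from control 1. Hey1 (chr3:8728419-8732316, minus strand) was the lowest of these 4 members, at 36.7 and 28.1 TPM in the controls and 85.3 and 81.3 TPM after BMP6. Here both groups were well apart, and the BMP6 libraries agreed closely with each other.

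The order Hes6, Hes1, Heyl, Hey1 held within each of the 4 libraries. Hes1 and Heyl were the closest neighbors after BMP6 relative to their spread, with 132 ± 31.2 and 94.1 ± 2.96 TPM (SD, n = 2 each), a difference little larger than the SD of Hes1. Hey1 came near to Heyl after BMP6, at 83.3 ± 2.83 TPM, whereas in controls it was at 32.4 ± 6.04 TPM and Heyl at 79.8 ± 13.0 TPM (SD, n = 2 each). The share of Hey1 in the summed TPM of the family was 2.98% and 1.93% in the controls and 4.99% and 4.08% after BMP6.

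**Figure D1:**
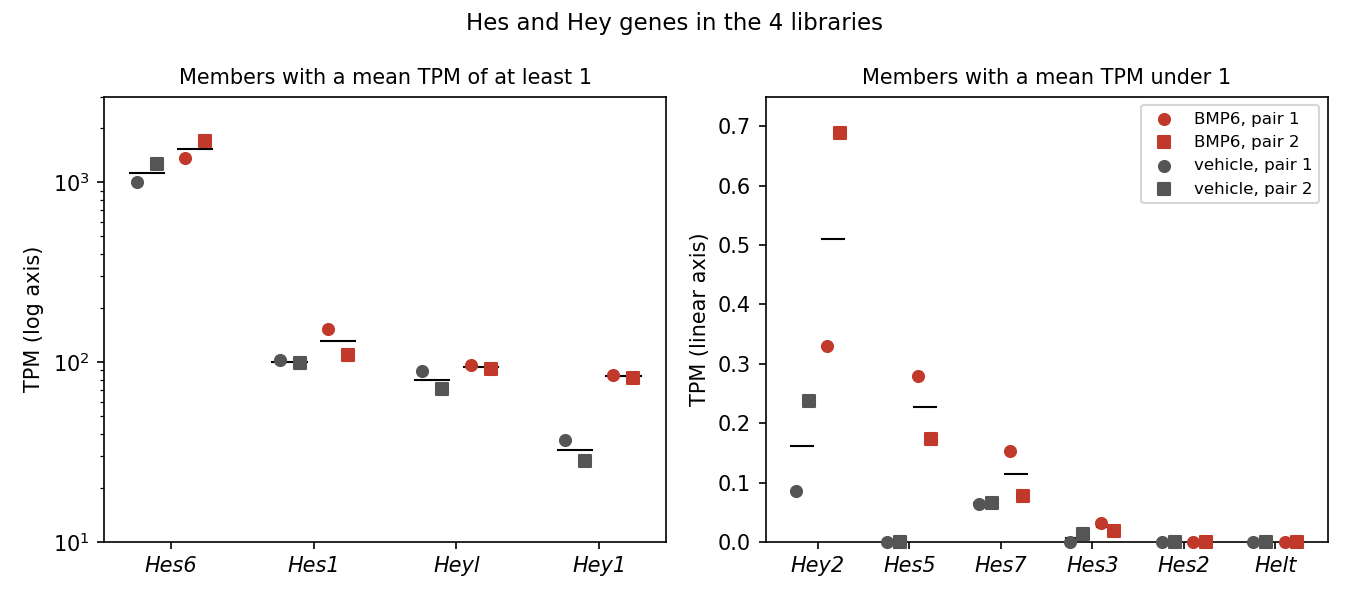
TPM of the 10 members in each library (log axis on the left for the 4 members with a mean of at least 1 TPM, linear axis on the right for the others). Circles are pair 1, squares pair 2, gray the vehicle controls, red BMP6, and bars the group means. Hey1 moved from 28.1 to 36.7 TPM in controls to 81.3 to 85.3 TPM after BMP6, and Hes2 and Helt were listed at 0 in every library.

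The other 6 members were at or near the lower end of detection. Hey2, known for its roles in heart and arteries (chr10:30708355-30718797, minus strand), was at 0.0860 and 0.237 TPM in the controls and 0.330 and 0.689 TPM after BMP6. This corresponded to about 14.0 and 37.2 reads in the controls and 52.8 and 105 reads after BMP6. Hes5, an effector best known from neural progenitors (chr4:155045380-155046828, plus strand), was listed at 0 in both controls. After BMP6 it was at 0.279 and 0.173 TPM, or about 22.3 and 13.3 reads. These reads lay in exons 2 and 3, and exon 1 had a depth of 0. Hes7, a component of the segmentation clock of the embryo (chr11:69011230-69014881, plus strand), was at 0.0641 and 0.0659 TPM in the controls and 0.153 and 0.0773 TPM after BMP6, with 7.34 to 17.3 reads. Hes3 (chr4:152370429-152376119, minus strand) was listed at 0 and at 0.0139 TPM in the controls and 0.0319 and 0.0182 TPM after BMP6, which is at most about 3.65 reads. Hes2 (chr4:152243324-152246926) and Helt (chr8:46745076-46747708) were listed at 0 in all 4 libraries.

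Hey2, Hes5, Hes7 and Hes3 were each higher after BMP6 in both pairs. In pair 2, however, Hes7 had about 8.39 reads after BMP6 and 7.34 in the control, and Hes3 about 2.00 and 1.56. Only 2 of 4 Hes7 exons were higher in each pair. Of 5 Hey2 exons, 5 were higher in pair 1 and 4 in pair 2. Named entries are those whose gene symbol is not a predicted, microRNA, antisense or pseudogene name. Of the 5090 named entries with a mean above 0 and under 1 TPM, 20.1% were higher in both pairs. At these read numbers no fold change is given for Hes5 and Hes3, and none of the 4 was tested. On the other strand, Hes5 overlaps the non-coding gene Gm20421, listed at 0 in all libraries, and Hes7 overlaps 9130213A22Rik, which was at 0.257 to 0.694 TPM. Reads of the stretch that Hes7 and this partner both cover cannot be told apart without strand. The partner ends at chr11:69013415, so most of Hes7 exon 4 (chr11:69013369-69014881) lies outside it.

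Hey1 rose after BMP6 and was the only member called. The mean level was 2.57 times that of the controls, and the log2 fold change on the log2(TPM + 1) scale was 1.35 (SE 0.14, 95% interval 1.00 to 1.69, adjusted p = 0.0523 by limma). Within the pairs the log2 differences were 1.20 and 1.50. In bulk RNA, more cells that express a gene and more transcript per cell cannot be told apart. A call required a fold change of at least 2 and a Benjamini-Hochberg adjusted p under 0.1 over 13128 entries with a mean of at least 1 TPM. Of the 10645 named entries among them, 24 were called higher, which is 0.225%, and 1 of the 4 tested members was. The call was lost in a fit without a mean-variance trend (adjusted p = 0.154) and without a filter on low values (adjusted p = 0.648). With the replicate number as a block, which the batch labels provide for, the interval was 1.15 to 1.54 and the adjusted p was 0.000102. That fit called 36 named entries higher, or 0.338%, and again only Hey1 among the members.

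Hes6 passed the adjusted p with the replicate block and not without it. In controls its mean was 1131 ± 180.1 TPM, and BMP6 libraries averaged 1539.6 ± 237 TPM (SD, n = 2 each), which is 1.36 times as much. The differences within the pairs were nearly equal, at 0.45 and 0.44 on the log2(TPM + 1) scale. Without the replicate block the log2 fold change was 0.45 (SE 0.15, 95% interval 0.08 to 0.81, adjusted p = 1.00 by limma), and both libraries of pair 2 were higher than their counterparts in pair 1. With the block the SE was 0.04 and the adjusted p was 0.000565. At any fold, the block brought 141 named entries (1.32%) under the adjusted p on the higher side and 34 (0.319%) on the lower side, and 2 of the 4 tested members were among the former. Without the block 28 named entries (0.263%) were under the adjusted p on the higher side, and Hey1 was the only member among them. Hes6 stayed below the fold threshold of 2 in both fits. Its log2 fold change was 0.28 without control replicate 1, 0.29 without BMP6 replicate 2, 0.60 without BMP6 replicate 1 and 0.61 without control replicate 2, in fits that no longer hold both pairs.

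Hes1 and Heyl did not pass the test in either fit. The log2 fold change of Hes1 was 0.37 (SE 0.16, 95% interval -0.03 to 0.77), with 0.59 in pair 1 and 0.16 in pair 2. With the block the interval was 0.15 to 0.59 and the adjusted p was 0.155. Without BMP6 replicate 1 the log2 fold change of Hes1 was 0.13, and without BMP6 replicate 2 it was 0.61. For Heyl it was 0.24 (SE 0.13, 95% interval -0.07 to 0.56), with 0.11 and 0.38 within the pairs. With the block the interval of Heyl was 0.06 to 0.42 and the adjusted p was 0.262. The estimate for Heyl was 0.08 without control replicate 2 and 0.41 without control replicate 1. The upper ends of the intervals of Hes1, Heyl and Hes6 without the block all lay below the fold threshold of 2.

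All 4 tested members were higher in both pairs, as were 36.7% of the named entries tested. In all 4, both BMP6 libraries lay above both controls, as they did in 17.4% of these entries. With 2 libraries against 2, an exact permutation test over samples cannot give a two-sided p below 0.333. The median log2 fold change of the 4 tested members was 0.41, compared with 0.02 over all entries tested. Whether Hey1 responded more strongly than the other members was not tested. Its difference exceeded those of Hes6, Hes1 and Heyl in both pairs.

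**Figure D2:**
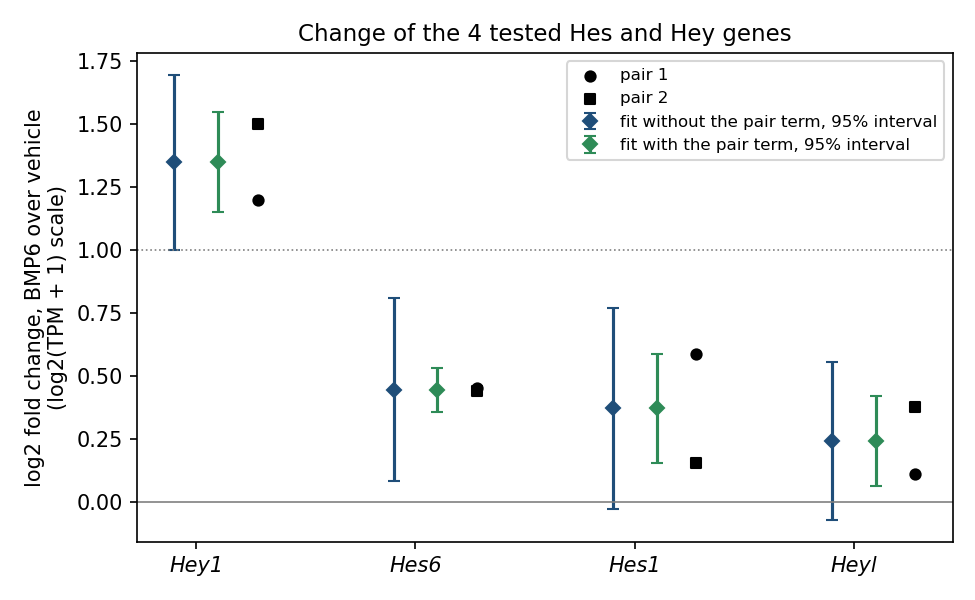
Log2 fold change of BMP6 over vehicle on the log2(TPM + 1) scale for the 4 tested members. Diamonds are the limma estimates with 95% intervals without (blue) and with (green) the pair term, and black symbols are the differences within pair 1 (circles) and pair 2 (squares). The dotted line marks a fold change of 2, which only Hey1 exceeded, with 1.20 and 1.50 within the pairs.

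Every exon of the 4 tested members was higher after BMP6 in both pairs. Exon depth was brought to the TPM scale of its library and compared within the pairs after adding 1. The 5 exons of Hey1 gave log2 differences of 1.01 to 1.22 in pair 1 and 1.33 to 1.52 in pair 2. The 3 exons of Hey1 outside Gm64520 gave 1.11 to 1.22 and 1.40 to 1.52. The 4 exons of Hes6 gave 0.39 to 0.46 in pair 1 and 0.43 to 0.50 in pair 2. For Hes1 the 4 exons gave 0.49 to 0.61 in pair 1 and 0.14 to 0.21 in pair 2. The gap between the pairs was thus present in each of its exons. The 5 exons of Heyl gave 0.05 to 0.21 and 0.37 to 0.49. Depth within the transcripts was uneven, and the first exon had the lowest depth in each of the 4 members. In Hey1 it was at 8.03 to 21.6 on the TPM scale, against 33.2 to 102 in the last exon. In Hes6 the first exon was at 289 to 494 and the last at 1192 to 2026.

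**Figure D3:**
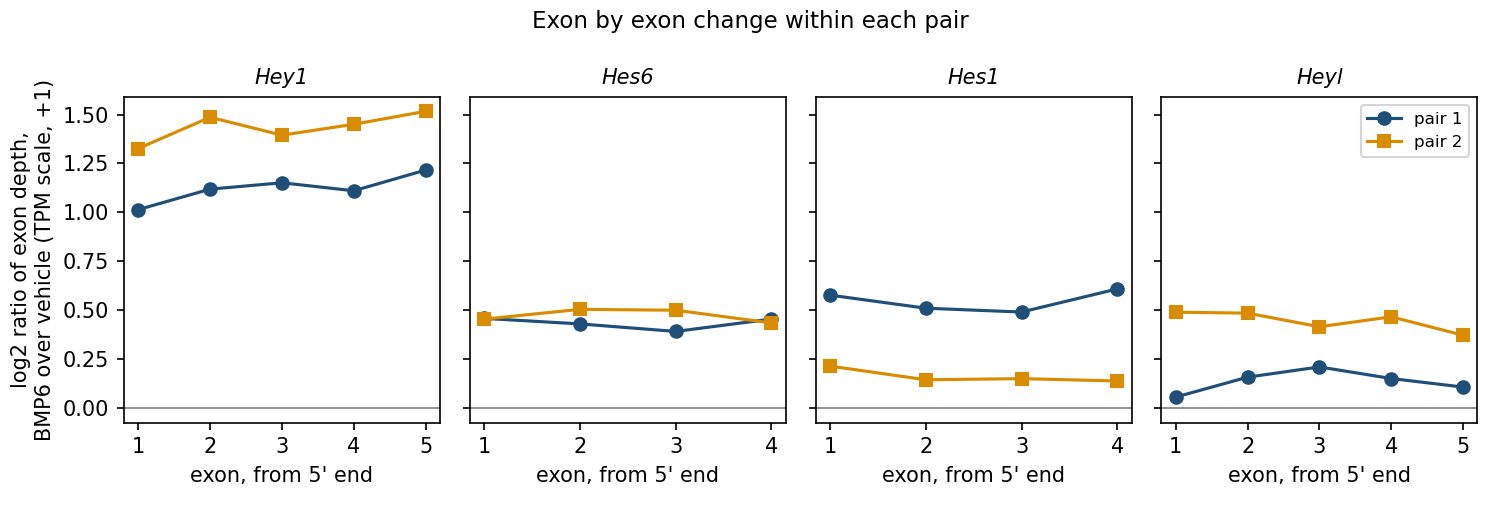
Log2 ratio of exon depth (TPM scale, 1 added) of BMP6 over vehicle for each exon of Hey1, Hes6, Hes1 and Heyl, counted from the 5′ end. Circles are pair 1 and squares pair 2. Every exon lay above 0 in both pairs, the pairs nearly coincided in Hes6, and in Hes1 pair 1 was above pair 2 in every exon.

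Promoter sequences of 5 members (Hes5, Hes6, Hes7, Hey2 and Helt) were found in a RefSeq table. Those of Hes6 and Hes5 are shown, since the former was higher within the pairs and the latter was listed only in BMP6 libraries. Each covers the 250 bases before the start of the transcript used in the files. RefSeq gives them on GRCm38.p6, and each had 1 exact match on its GRCm39 chromosome, whose coordinates are given. Capitals mark TGGGAA on either strand, the core letters of RBPJ sites.
Hes6 (chr1:91340945-91341194, minus strand): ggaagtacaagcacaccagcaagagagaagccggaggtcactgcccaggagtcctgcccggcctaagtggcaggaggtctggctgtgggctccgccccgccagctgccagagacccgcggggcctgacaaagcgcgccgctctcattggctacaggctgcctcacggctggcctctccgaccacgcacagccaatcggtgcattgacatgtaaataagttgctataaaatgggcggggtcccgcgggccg
Hes5 (chr4:155045130-155045379, plus strand): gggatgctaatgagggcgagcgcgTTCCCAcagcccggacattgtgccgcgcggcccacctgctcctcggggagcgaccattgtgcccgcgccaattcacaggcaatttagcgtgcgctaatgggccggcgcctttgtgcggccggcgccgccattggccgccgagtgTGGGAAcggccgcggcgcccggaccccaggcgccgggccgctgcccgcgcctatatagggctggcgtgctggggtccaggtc
Hes5 held 2 such matches and Hes6 none, and 21.6% of 32851 RefSeq promoter windows of this length held at least 1. GGCGCC, a GC-rich element bound by SMAD1 and SMAD5, matched 4 times in Hes5 and not in Hes6, and 9.59% of the windows held it at least once. In the windows not shown, Hey2 and Hes7 each held 1 TGGGAA match and no GGCGCC. Helt, listed at 0 in all libraries, held 1 of each. Whether such matches go with the change after BMP6 was not tested. The N box letters CACNAG, searched on both strands, matched once in Hes6 and not in Hes5 (36.7% of windows). CACGNG, another form of site for Hes proteins, matched in neither (23.5% of windows). RefSeq holds a second window for Hes6, farther upstream (chr1:91341761-91342010, minus strand), which held CACGNG once and none of the other motifs. CACGAG would count as a match to both of the last motifs. GC content was 64.0% for Hes6 and 71.6% for Hes5, and the windows behind the shares were not matched for it. A match of letters does not show binding, and none is inferred.

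Among the genes upstream of Hes and Hey in the Notch pathway, none passed the adjusted p without or with the block by limma, and none had an unadjusted p under 0.05 without it. The same was true of the Groucho genes. Of the 4 receptors, 3 were tested, with log2 fold changes of 0.27 (Notch1), 0.13 (Notch2) and -0.12 (Notch3) and adjusted p of 0.420 to 0.689 with the block by limma. Of the 5 ligands, 3 were tested, namely Dll1 (30.2 ± 0.692 TPM in controls), Jag1 and Jag2, with log2 fold changes of 0.07, 0.33 and 0.28. With the block the 95% intervals of Jag1 (0.05 to 0.61) and Jag2 (0.01 to 0.55) lay above 0, with adjusted p of 0.321 and 0.366. The other ligands, Dll3 and Dll4, were at most at 0.0477 and 0.0214 TPM. RBPJ, the DNA-binding partner of the Notch intracellular domain, is encoded by Rbpj, which had a log2 fold change of 0.17 (95% interval -0.25 to 0.59). Of the Mastermind coactivators, Maml1 was tested (-0.19), and Maml2 and Maml3 were below 1 TPM on average. The 6 genes of the Groucho family, which holds corepressors of Hes proteins, were all tested. They had 3 values above and 3 below 0, for example Tle1 with 0.06, Tle2 with -0.19 and Tle3 with 0.23.

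Among 9 further genes that respond to Notch, 7 were tested and 1 passed in both fits. This was Snai1, a zinc finger repressor, at 43.8 and 46.3 TPM in the controls and 134 and 103 TPM after BMP6. The log2 fold change of Snai1 was 1.37 (SE 0.14), with adjusted p of 0.0511 without and 0.000253 with the block by limma. Nrarp, a feedback inhibitor of Notch, was at 3.87 and 3.02 TPM in the controls and 4.85 and 5.87 TPM after BMP6, a log2 fold change of 0.52 with an adjusted p of 0.176 with the block. Lfng, which encodes a glycosyltransferase acting on Notch receptors, was at 0.0615 and 0.299 TPM in the controls and 0.753 and 0.969 TPM after BMP6, and was not tested since its mean was below 1 TPM. The median log2 fold change of the 7 tested genes was 0.07.

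The closest relatives outside the family, Bhlhe40 and Bhlhe41, encode bHLH repressors with an Orange domain that take part in the circadian clock. Both passed the adjusted p with the block (0.0245 and 0.0102 by limma) and neither did without it (1.00 and 0.637). Bhlhe41 was at 35.6 and 36.5 TPM in the controls and 51.7 and 70.2 TPM after BMP6, with log2 differences of 0.52 and 0.93 within the pairs. Bhlhe40 was at 51.7 and 60.8 TPM in the controls and 67.4 and 86.4 TPM after BMP6, with 0.37 and 0.50.

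Genes that Hes or Hey proteins are reported to repress did not pass the test at this time point, in either fit or at an unadjusted p under 0.05 without the block. This list held 6 genes, all tested, with 3 values above and 3 below 0 and a median of 0.04. Myod1, the myogenic determination factor, was at 536 and 614 TPM in the controls and 631 and 622 TPM after BMP6 (log2 fold change 0.13, 95% interval -0.09 to 0.35). Myog had a log2 fold change of -0.07 (95% interval -0.37 to 0.22). The intervals leave out changes of a factor of 2 in either direction.

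Known BMP targets give the scale of the response. All 5 were tested, 4 passed the adjusted p without the block and 5 with it. The Id genes encode inhibitors of bHLH proteins, and Id1 rose from 90.5 and 129 to 584 and 513 TPM and Id3 from 127 and 158 to 841 and 730.4 TPM, with log2 fold changes of 2.33 and 2.46 and adjusted p of 0.0164 and 0.0104 by limma. For Id2 the log2 fold change was 1.26 (adjusted p = 0.0511), beside 1.35 for Hey1. Smad7 (2.01, adjusted p = 0.0511) encodes an inhibitory SMAD, as does Smad6 (2.23), whose adjusted p was 0.270 without and 0.00169 with the block. Of 10 immediate early genes, which also react to handling, 9 were tested, and Junb (1.39) and Dusp1 (0.90) passed the adjusted p in both fits. Fos (0.27) and Egr1 (-0.18) did not pass in either, and Fosb was below 1 TPM. Des, which encodes the intermediate filament desmin, was the only one of the 6 myogenic markers under the adjusted p in either fit, with a log2 fold change of -0.24 and an adjusted p of 0.0312 with the block.

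The named entries most like Hey1 over the 4 libraries, by Euclidean distance of centered log2(TPM + 1), were Spsb1 (0.37), Zbtb2 (0.37) and Ngfr (0.37). Their log2 fold changes were 0.99, 1.32 and 1.09. Those most like Hes1 were Ccn1 (distance 0.10), Cdc42ep1 (0.12) and Rbks (0.12). Ccn1 was at 411 and 399.9 TPM in the controls and 631 and 484 TPM after BMP6, so that it too was highest in BMP6 1. Each distance is taken over 4 libraries only and is a description without a test.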

How the data were processed

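RNA-seq libraries of polyA RNA were prepared by the Smart-seq2 protocol, unstranded and without molecular identifiers. Per the labels and the methods of the study, the authors aligned reads with STAR 2.7.11a to GRCm39 (GENCODE M32), sorted them with SAMtools 1.17 and quantified a merged annotation with StringTie 2.2.1. Levels are TPM as deposited by the authors. Coverage, deposited by the authors per gene, transcript and exon, was used to rebuild read numbers (coverage times length over 100 bases) and exon depth. Deposited FPKM were not used. Log2(TPM + 1) of entries with a mean of at least 1 TPM was fitted with limma 3.58.1 in R 4.3.3 (trended eBayes, two-sided, Benjamini-Hochberg), without a block as the main fit and with the replicate number as a block. Calls were counted among entries with a gene name other than predicted, microRNA, antisense or pseudogene names. The batch label holds the replicate number, and deviations of same-numbered libraries correlated at 0.563. The titles call the replicates biological, but whether libraries come from separate animals is not stated. The p-values therefore measure the spread between these samples, largely as shared across entries, and not a known spread between animals. Named were all 10 members, genes of the lists other than the cell type markers that passed in either fit or were among the first 3 of their list, and the 3 entries nearest to Hes1 and Hey1. Jag1, Jag2, Maml3, Acta2 and the markers of other cell types were named after their values were seen. Members and lists were chosen with earlier results of these data known. Sequences came from GRCm39 and RefSeq, and transcripts were compared with blastn 2.17.0. Alternatives were other pseudocounts, filters and scalings, voom on rebuilt reads, and leaving out each library.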

Additional observations from a re-analysis of the deposited data

How the results depend on the processing

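With limma, 24 named entries were called higher and 0 lower, at an adjusted p under 0.1. At the same fold threshold and an unadjusted p below 0.05, the counts were 36 and 1. The count called higher was 36 with the replicate block, 15 with a pseudocount of 5 TPM, 15 among entries averaging 5 TPM or more, 12 without a trend, 11 at an adjusted p under 0.05, 56 in voom with the replicate block and 0 without a filter on low values (38 unadjusted). Called lower were 1 with the replicate block, 6 in voom with the replicate block and 1 to 7 when 1 library was left out. Hey1 was the member called, with 0 members called without the filter (adjusted p of Hey1 0.648), without a trend (0.154) and at an adjusted p under 0.05. In each of these fits Hey1 was the 1 member with both an unadjusted p under 0.05 and a fold change of at least 2. Its log2 fold change was 1.35 in each. Over the alternatives its adjusted p ranged from 4.82e-05 to 0.648, with log2 fold changes of 1.16 to 1.53. With the replicate block Hes6 passed the adjusted p (1.00 without and 0.000565 with the block, 0.00161 in voom with the block). The block also moved the 95% intervals of Hes1 (0.15 to 0.59) and Heyl (0.06 to 0.42) above 0, and it raised the members at an unadjusted p under 0.05 from 2 to 4, with no other change to which members passed the adjusted p. The log2 fold changes of Hes1, Hes6, Hey1 and Heyl kept their sign in all alternatives run. Quantile normalization moved the median of all entries by -0.02. With 2 libraries per group, p-values rest largely on the spread shared across entries, and 6 of the 10 members were too low to be tested.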
